A study of Mus musculus with 30 samples.

Results

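A set of 7 genes of the mouse 2-cell-like programme, besides its Zscan4 family, was followed in embryonic stem cells of 5 lines and in the embryoid bodies made from them. The genes are Tdpoz1, Tdpoz2, Tdpoz3, Tdpoz4, Zfp352, Tcstv1 and Tcstv3, taken by gene symbol, and all 7 had a row among the 20563 genes of the deposited table of normalised counts. The genes were chosen by name with earlier values of these data known, in which 2-cell-like genes were higher in both Pali mutants than in Pali wild type and Zscan4 was high in C129 wild type. Values of the Pali mutants against Pali wild type are therefore given as a description, with no test.

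The lines were a Pali double knockout (Pali1-/-, Pali2-/-), a Pali1 knockout (Pali1-/-), an Aebp2 gene trap (Aebp2gt/gt), C129 wild type and Pali wild type. Pali1 is a product of the Lcor locus and Pali2 one of the Lcorl locus, while Aebp2 encodes an accessory subunit of Polycomb repressive complex 2. Each line was sampled on gelatin with leukaemia inhibitory factor (day 0) and as embryoid bodies on non-adherent plates without it at day 4 and day 8. There were 2 libraries for each line and day, 30 in all, named as biological duplicates; the sources used here do not say whether a mutant line was 1 clone or several. That C129 wild type is the control of the gene trap was read from the order in which the series lists its lines. The sources used here give neither strain nor sex, so whatever else separates the C129 and Pali backgrounds cannot be told apart from the differences between them.

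In a culture of mouse embryonic stem cells a small and changing number of cells passes through a state that resembles the 2-cell embryo, when the embryo's own genome is first read. Cells in that state switch on endogenous retroviruses of the MERVL type and a set of genes otherwise silent in the culture. Tdpoz1 to Tdpoz4 encode proteins with a TRAF (MATH) domain and a BTB/POZ domain, the arrangement of SPOP, a substrate adaptor of CUL3 ubiquitin ligases. Zfp352 encodes a C2H2 zinc finger protein of the early embryo. Tcstv1 and Tcstv3 are small genes of the 2-cell stage whose forced expression lengthens telomeres in mouse embryonic stem cells.

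The genes lie in 3 places. On GRCm38 with GENCODE M21 models, Tdpoz2 (chr3:93651542-93652686, minus strand), Tdpoz1 (chr3:93669333-93676310, minus), Tdpoz4 (chr3:93796398-93797510, plus) and Tdpoz3 (chr3:93826020-93827117, plus) form 1 cluster, which with the relative Tdpoz5 spans 310 kb. Zfp352 stands at chr4:90218820-90225702 (plus). Tcstv1 (chr13:119893388-119894785, minus) and Tcstv3 (chr13:120316878-120318178, plus) lie 422 kb apart. Each of these genes has its coding sequence in 1 exon. The coding sequences of Tcstv1 and Tcstv3 were 94.7% identical over their aligned bases, with 27 mismatches, and pairs among Tdpoz1 to Tdpoz5 were between 78.4% and 88% identical, Tdpoz1 and Tdpoz3 being the closest. The sources used here do not say how reads that match several copies were counted, so the split of reads within each of these families is uncertain.

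Promoter sequence is shown because the genes of the set, which lie on different chromosomes, were high in the same libraries. The windows are the 250 bases before the start of transcription, from RefSeq on GRCm38.p6, 5′ to 3′ on the gene's own strand, for the 2 genes with a usable entry, and capitals mark TAATCC and TATAA, motifs chosen after the windows were seen. In the GENCODE M21 model Tdpoz1 starts at 93676310, inside its window, so by that model the end of the window is transcribed.
Tdpoz1, chr3:93676284-93676533, minus strand: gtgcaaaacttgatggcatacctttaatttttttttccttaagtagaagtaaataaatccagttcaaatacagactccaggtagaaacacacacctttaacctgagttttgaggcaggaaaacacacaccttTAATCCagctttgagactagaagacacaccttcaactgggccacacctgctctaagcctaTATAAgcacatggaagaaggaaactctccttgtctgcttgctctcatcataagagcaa
Zfp352, chr4:90218570-90218819, plus strand: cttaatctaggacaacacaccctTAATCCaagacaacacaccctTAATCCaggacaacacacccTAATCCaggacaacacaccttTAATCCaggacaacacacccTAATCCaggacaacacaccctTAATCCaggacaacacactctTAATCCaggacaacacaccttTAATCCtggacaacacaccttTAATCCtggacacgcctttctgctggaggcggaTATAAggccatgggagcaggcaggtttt
The Zfp352 window held 9 copies of TAATCC, the core bound by homeodomain proteins of the OTX and CRX kind, a count reached by 1 of the 32851 windows of the same length in the reference table, which is this window itself. These 9 copies lie in near-identical units placed one after another, so they are a repeat and not 9 independent sites. The Tdpoz1 window held 1 copy, and 6.25% of all windows held at least 1. TATAA occurred once in each, against 22.8% of all windows with a match, and both strands were searched for every motif. The longest run shared by both windows was acacaccttTAATCCag, 17 bases, found in 5 of the 32851 windows (0.0152%). These 5 include the 2 windows themselves. The run was picked as their longest match, so its low share is no support for a shared element.

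Before the members are described, the libraries were checked. The depth estimated from the value of 1 read lay between 13198297 and 28151943 reads per library. Aebp2 was at 17.1 to 66.4 normalised counts (median 32.8) in the 6 gene trap libraries, against 1312 to 2784 (median 2232) in the 6 C129 wild type libraries, with no overlap. The rows of Lcor and Lcorl do not isolate the Pali transcripts and overlapped among all lines, so they check nothing here. In the double knockout, the first replicates of day 0 and of day 4 carry a description of the other culture state, while the titles and cell types name the day used here. Fgf5, which rises on leaving the undifferentiated state, was at 58.6 normalised counts in the library titled day 0 and 2267 in the one titled day 4. Pou5f1, which marks undifferentiated cells, was between 19672 and 23514 in all 10 day 0 libraries.

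C129 wild type cells at day 0 had far more RNA of these genes than any other group. Over the 7 genes, 780 and 1304 reads were counted in the C129 libraries, which is 54.5 of every 1000000 reads (RPM; exact 95% Poisson interval 50.7 to 58.4) and 46.3 (43.8 to 48.9). The gene trap had 6.13 (4.94 to 7.52) and 6.46 (5.47 to 7.57) RPM at day 0, the double knockout 5.37 (4.33 to 6.58) and 2.33 (1.78 to 2.98), and the Pali1 knockout 2.12 (1.43 to 3.02) and 3.58 (2.76 to 4.58). Pali wild type had 0.503 (0.217 to 0.991) and 0.124 (0.015 to 0.447), from 8 and 2 reads. C129 wild type stood above every other library and Pali wild type below every other day 0 library, while both Pali mutants overlapped each other. These intervals cover counting error only, and since the RNA came from whole cultures, fewer cells in the 2-cell-like state and less of this RNA per cell cannot be told apart.

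**Figure D1:**
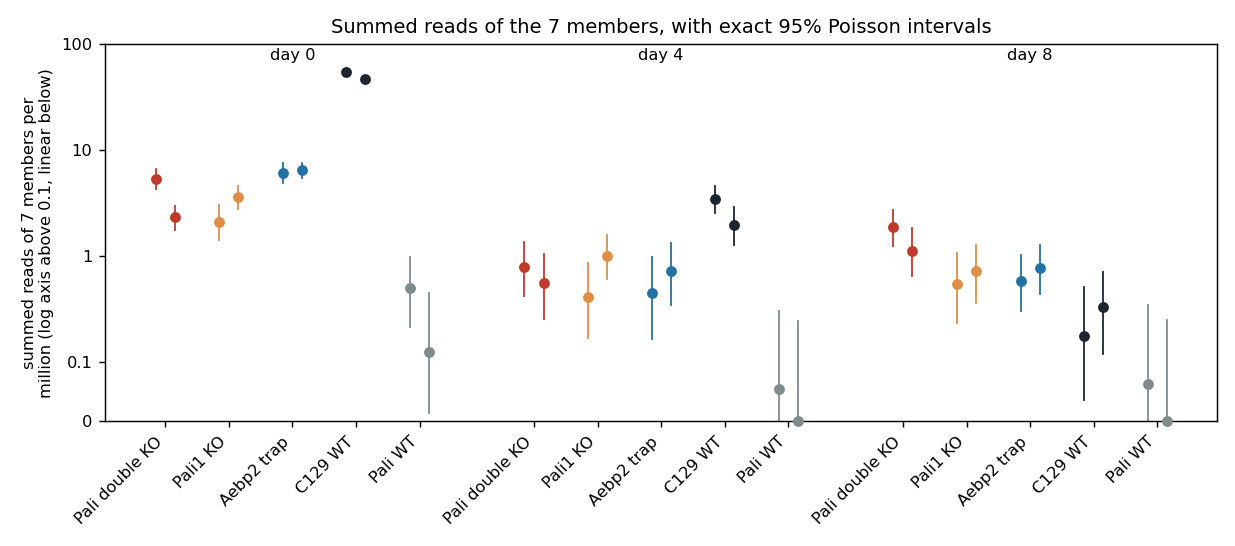
Reads of the 7 genes summed in each library, in RPM (vertical axis, logarithmic above 0.1 and linear below), by line and day; each dot is 1 library and each bar its exact 95% Poisson interval. The C129 day 0 libraries, at 54.5 and 46.3, stand above all others.

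Zfp352 showed the pattern in single values. At day 0 it was at 33.5 and 7.84 normalised counts in the double knockout, 7.44 and 14.9 in the Pali1 knockout, 26.0 and 21.5 in the gene trap, 240.3 and 208 in C129 wild type, and 1.10 and 0 in Pali wild type. Neither C129 library came near those of the other lines, the double knockout overlapped the gene trap and the Pali1 knockout, and the gene trap lay above the Pali1 knockout. By day 4 it was at 16.01 and 10.1 in C129 wild type, and by day 8 at 0.944 and 0. In order of its mean, C129 wild type at day 0 (224 ± 22.5, SD, n = 2) came first, then the gene trap (23.8 ± 3.18) and the double knockout (20.7 ± 18.1) at day 0 and C129 wild type at day 4 (13.0 ± 4.21). Of these neighbours only the first stood clear of the next.

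The Tcstv genes were likewise highest in C129 wild type. Tcstv3 was at 9.13 and 5.88 normalised counts in the double knockout, 7.44 and 12.9 in the Pali1 knockout, 37.3 and 23.0 in the gene trap, 306 and 233 in C129 wild type, and both Pali wild type libraries listed it at 0. For Tcstv3 the gene trap came second and clear of both Pali mutants. Tcstv1 was at 26.4 and 11.1 in the double knockout, 3.72 and 13.9 in the Pali1 knockout, 4.52 and 18.4 in the gene trap, 131 and 128 in C129 wild type, and 1.10 and 0 in Pali wild type. The double knockout held the second highest mean of Tcstv1, and its values overlapped those of the gene trap and the Pali1 knockout.

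The 4 Tdpoz genes were also highest in C129 wild type. Tdpoz4 was at 11.2 and 5.23 normalised counts in the double knockout at day 0, 6.20 and 10.95 in the Pali1 knockout, 12.4 and 16.9 in the gene trap, 146 and 169 in C129 wild type, and 1.10 and 0 in Pali wild type. Tdpoz3 was at 9.13 and 5.88 in the double knockout, 3.72 and 1.99 in the Pali1 knockout, 13.6 and 26.9 in the gene trap, 99.4 and 65.1 in C129 wild type, and 1.10 and 0 in Pali wild type. Neither gene's values in any other line overlapped those of C129 wild type. Tdpoz2 was at 1.01 and 1.96 in the double knockout, 1.24 and 3.98 in the Pali1 knockout, 3.39 and 2.30 in the gene trap, 42.8 and 26.7 in C129 wild type, and 2.19 and 2.14 in Pali wild type. Outside C129 wild type no library of Tdpoz2 held more than 4 reads, so differences between the other lines were not detectable at this depth. Tdpoz1 was at 3.04 and 2.61 in the double knockout, 7.44 and 4.98 in the Pali1 knockout, 6.79 and 6.91 in the gene trap, 16.4 and 20.2 in C129 wild type, and 2.19 and 0 in Pali wild type. Its C129 libraries were again the highest, by a smaller margin over the Pali1 knockout and the gene trap.

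**Figure D2:**
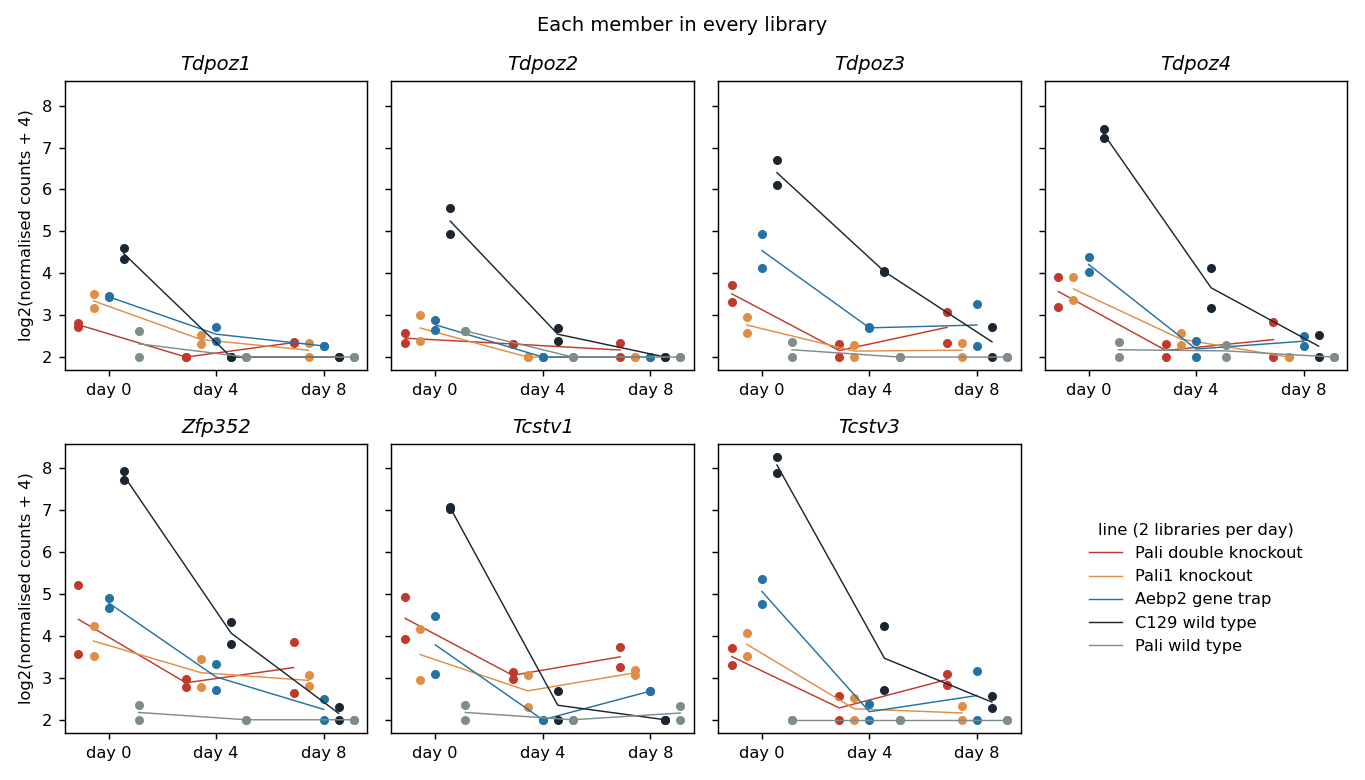
Normalised counts of each gene in each library, 1 panel per gene, by line and day; each dot is 1 library. In every panel the pair of C129 wild type libraries at day 0 is the highest.

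The first comparison set the wild type lines against each other, C129 wild type against Pali wild type. Tests used limma on log2(normalised count + 4) over 15712 genes, with p-values adjusted by Benjamini-Hochberg within each comparison and called below 0.05. Differences on this scale understate the change of genes near 0 and depend on the added 4. At day 0 all 7 genes were higher in C129 wild type, by 2.16 for Tdpoz1 (SE 0.274, adjusted p = 2.17e-05), 4.23 for Tdpoz3 (SE 0.394, adjusted p = 6.57e-07), 5.66 for Zfp352 (SE 0.48, adjusted p = 1.95e-07) and up to 6.08 for Tcstv3 (SE 0.457, adjusted p = 4.6e-08). A fit of only the groups compared called 6, without Tdpoz1. Of all genes tested, 12.0% were called higher in C129 wild type. Tdpoz1 and Tdpoz2 reached the minimum for testing, 10 normalised counts in 2 libraries, only in the C129 day 0 libraries themselves, so they had to differ and the count of 7 supports nothing. The direction of the other genes could be foreseen too, since all were chosen with Zscan4 known to be high in C129 wild type. Their p-values are therefore no independent support, and the same holds wherever C129 wild type at day 0 is compared. The p-values rest on a spread pooled over the duplicates of all 15 groups, some of them with both libraries at 0. It is not the spread of the compared duplicates alone.

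At day 4 the difference was smaller and passed the test for 4 genes, against 8.35% of all genes called higher. Zfp352 was at 16.01 and 10.1 normalised counts in C129 wild type and at 0 in both Pali wild type libraries (log2 difference 2.07, SE 0.48, adjusted p = 0.00663 by limma). Tdpoz3 was at 12.3 and 12.6 against 0 and 0 (2.04, adjusted p = 0.00179 by limma), Tdpoz4 differed by 1.51 (adjusted p = 0.0116) and Tcstv3 by 1.47 (adjusted p = 0.0357). Tcstv3 was uneven between the C129 duplicates, at 14.8 and 2.51. Leaving out C129 replicate 1 left 1 gene called, leaving out Pali wild type replicate 2 left 2, and a fit of only the groups compared called 0 genes, with 3 at an unadjusted p under 0.05. By day 8 no gene passed by limma, adjusted or at an unadjusted p under 0.05, against 8.86% of all genes called higher and 8.49% lower, and the 7 log2 differences lay between -0.16 and 0.42.

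The second comparison asked how the Aebp2 gene trap differed from C129 wild type. At day 0 all 7 genes were lower in the gene trap, from a log2 difference of -1.03 for Tdpoz1 (SE 0.274, adjusted p = 0.018) to -3.27 for Tcstv1 (SE 0.467, adjusted p = 0.000208) by limma, with a median of -3.02. Among all genes tested 7.78% were called lower. The cautions on Tdpoz1 and Tdpoz2 and on the choice of the genes hold here too. On the linear scale the summed normalised counts averaged 110 ± 8.46 in the gene trap and 915 ± 93.3 in C129 wild type (SD, n = 2 each), so the gene trap held 12% of the C129 level. By gene it was 37.5% for Tdpoz1 and 24.6% for Tdpoz3, 8.2% for Tdpoz2, 9.33% for Tdpoz4, 10.6% for Zfp352, 8.88% for Tcstv1 and 11.2% for Tcstv3. Whether these shares differ from gene to gene was not tested.

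Leaving out any 1 of the 4 libraries in turn kept 5 or 6 of the 7 calls, Tdpoz1 being lost each time with an adjusted p between 0.0615 and 0.111. Tdpoz3 was lost without gene trap replicate 1 (adjusted p = 0.0585) and without C129 replicate 1 (adjusted p = 0.0733). Fitted on these 4 libraries alone, limma called 0 of the 7 (adjusted p between 0.0706 and 0.221, all 7 at an unadjusted p under 0.05) and 1 gene of the whole table. The C129 day 0 libraries serve in this comparison, in the first and in the C129 time course, so the 3 results share them.

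At day 4 only Tdpoz3 (-1.34, adjusted p = 0.041) and Tdpoz4 (-1.46, adjusted p = 0.0228) were called lower in the gene trap by limma, against 4.96% of all genes. Tdpoz4 was at 0 and 1.22 normalised counts in the gene trap and at 13.5 and 5.03 in C129 wild type. Without gene trap replicate 1, or without C129 replicate 1, 0 genes were called, without gene trap replicate 2 it was 1, and a fit of the 4 libraries alone called 0 (2 at an unadjusted p under 0.05). At day 8 no gene passed, also at an unadjusted p under 0.05, against 9.59% of all genes higher and 10.6% lower. The gene trap then held 12 and 15 reads of the 7 genes and C129 wild type 3 and 6.

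**Figure D3:**
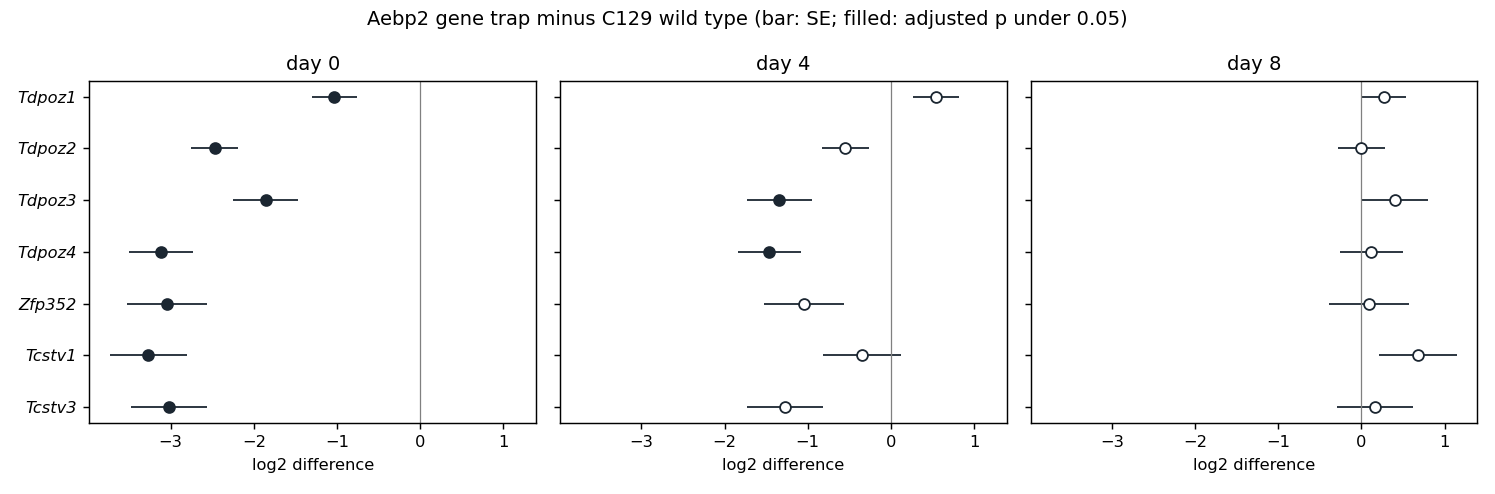
Log2 difference of each gene, Aebp2 gene trap minus C129 wild type, at day 0, 4 and 8 (bars, SE; filled dots, adjusted p under 0.05). At day 0 all 7 lie below 0, from -1.03 to -3.27; at day 8 none is filled.

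Along embryoid body formation the genes fell to a few reads in C129 wild type. All 7 were lower at day 4 than at day 0, with log2 differences between -2.36 (Tdpoz3) and -4.71 (Tcstv1), where 15% of all genes were called lower by limma. All 7 were lower at day 8 too, with log2 differences from day 0 between -2.47 (Tdpoz1) and -5.68 (Zfp352), where 22.4% of all genes were. Summed reads in C129 wild type went through 780 and 1304 at day 0, 49 and 26 at day 4, and 3 and 6 at day 8. The calls held in fits of only the groups compared. Since Tdpoz1 and Tdpoz2 entered the test through the C129 day 0 libraries alone, however, their fall from that day was fixed by the filter and supports nothing.

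In the gene trap 7 genes were lower at day 4 than at day 0 and 6 at day 8, against 15% and 14.9% of all genes. The largest fall was that of Tcstv3 at day 4 (log2 difference -2.87, SE 0.457, adjusted p = 0.000105 by limma). Tcstv1 was the gene not called at day 8: it was at 4.52 and 18.4 normalised counts at day 0, 0 and 0 at day 4 and 2.39 and 2.46 at day 8 (log2 difference of day 8 from day 0 -1.11, SE 0.467, adjusted p = 0.0828). A fit of only the groups compared left 1 call at each day, with 5 genes at an unadjusted p under 0.05 at each.

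Fewer of the genes passed in the Pali mutants, and whether their falls differ from those of the gene trap was not tested. In the double knockout 5 genes were lower at day 4 (all but Tdpoz2 and Tcstv3, which differed by -0.14 and -1.23), where 13.9% of all genes were called lower, and at day 8 only Tdpoz4 was, at 3.13 and 0 normalised counts, against 11.2 and 5.23 at day 0 (log2 difference -1.15, adjusted p = 0.0294 by limma), where 14.2% were. This 1 of 7 at day 8 is near the share of all genes, and Tdpoz4 then rested on 3 and 0 reads. The day 4 count was 0 without day 0 replicate 1 and 1 without either day 4 replicate, and that of day 8 ranged from 0 without day 0 replicate 1 or day 8 replicate 2 to 2 without day 0 replicate 2 or day 8 replicate 1. In the Pali1 knockout the same 3 genes, Tdpoz1, Tdpoz4 and Tcstv3, were lower at day 4 and at day 8, where 15.3% and 20.1% of all genes were called lower. Tcstv3 was at 7.44 and 12.9 normalised counts at day 0 in the Pali1 knockout, 0 and 1.75 at day 4 and 0 and 1.02 at day 8 (log2 differences from day 0 of -1.54 and -1.64, adjusted p = 0.0157 and 0.00762 by limma). Its day 4 count was 1 without day 0 replicate 2 and 0 without day 4 replicate 1. Fits of only the groups compared called 0 and 0 genes in the double knockout (3 and 0 at an unadjusted p under 0.05), and 0 and 1 in the Pali1 knockout (2 and 3).

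Pali wild type had little to lose. Its 2 day 0 libraries held 8 and 2 reads of the 7 genes, its day 4 libraries 1 and 0, and its day 8 libraries 1 and 0. No gene was called by limma at day 4 or day 8, and 1 was at an unadjusted p under 0.05 at each, against 12.7% and 11.7% of all genes called lower. Tested directly, the day 8 change from day 0 was more negative in C129 wild type than in Pali wild type for all 7 genes, against 8.32% of all genes called in that direction. For Tdpoz1 and Tdpoz2 the filter fixed this direction too; for the other genes the difference, C129 wild type minus Pali wild type, ran from -3.86 (Tdpoz3, adjusted p = 0.000204 by limma) to -5.66 (Tcstv3, adjusted p = 2.6e-05) on the log2 scale. The fall was smaller in the gene trap than in C129 wild type for all 7, with the same caution on Tdpoz1 and Tdpoz2, against 8.66% of all genes; the other genes differed by 2.26 (Tdpoz3, adjusted p = 0.0108) to 3.95 (Tcstv1, adjusted p = 0.00077). That count was 3 in a fit of only the groups compared, 4 with a pseudocount of 1, and 5 or 6 without any 1 library. Tdpoz1 was lost without each library in turn, and Tdpoz3 without gene trap replicate 1 of day 0 or of day 8 or C129 replicate 1 of day 0. Of the 7 markers of undifferentiated cells, 6 moved in the same directions by limma: their change was more negative in C129 wild type than in Pali wild type (median of the 7, -1.57) and less negative in the gene trap than in C129 wild type (median 1.38). The part of undifferentiated cells in these results was not tested.

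Both Pali mutants held more of these reads at day 0 than Pali wild type, which is the pattern that led to the choice of the genes. In each mutant 6 of the 7, all but Tdpoz2, had both libraries above both of Pali wild type, as did 23.5% of all genes for the double knockout and 24.3% for the Pali1 knockout. Median log2 differences were 1.39 for the double knockout, between -0.17 (Tdpoz2) and 2.25 (Tcstv1), and 1.38 for the Pali1 knockout, between 0.07 (Tdpoz2) and 1.80 (Tcstv3), with SE between 0.274 and 0.48. Without the day 0 library whose description and title disagree (replicate 1), the double knockout's summed RPM was 2.33 at day 0, against a mean of 3.85 with it.

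By day 4 the genes with both libraries above Pali wild type were 3 of 7 in each mutant, against 22.1% of all genes for the double knockout and 21.9% for the Pali1 knockout. Zfp352 and Tcstv1 were in both sets. The remaining gene was Tdpoz2 in the double knockout, at 1 read in each library, and Tdpoz1 in the Pali1 knockout, at 1 and 2 reads. Pali wild type held 1 and 0 reads of the 7 genes at day 4 and again at day 8. Against a gene at 0 there, 1 read in each mutant library was enough to count. At day 8 they were 5 of 7 in the double knockout, against 29.8% of all genes, and 2 of 7 in the Pali1 knockout, Zfp352 and Tcstv1, against 30.9%. Among the 5, Tdpoz1 was at 1 read in each double knockout library and Tdpoz3 at 1 and 4. Zfp352 was then at 10.4 and 2.23 normalised counts in the double knockout, 4.35 and 3.05 in the Pali1 knockout, and 0 and 0 in Pali wild type. Tcstv1 was at 9.40 and 5.58 in the double knockout, 4.35 and 5.08 in the Pali1 knockout, and 1.00 and 0 in Pali wild type. Both genes were read at day 8 in all 4 Pali mutant libraries, from 2 to 10 reads each. Tcstv1 was also read in both gene trap libraries of that day, at 3 reads each, and so was not particular to the Pali mutants. Zfp352 was at 0 and 2 reads there. The 2 of 7 in the Pali1 knockout is near the share of all genes.

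The third comparison asked whether loss of Pali2 on top of Pali1 moved these genes. No gene passed by limma at day 0, 4 or 8, adjusted or at an unadjusted p under 0.05, where 2.04% of all genes were called higher and 1.04% lower at day 0, 0.929% and 0.452% at day 4, and 0.936% and 0.439% at day 8. At day 0 the differences, double knockout minus Pali1 knockout, lay between -0.57 (Tdpoz1, SE 0.274) and 0.86 (Tcstv1, SE 0.467). These errors leave room for a difference of more than 1 on the log2 scale for Tcstv1, so the mutants are not shown to be alike.

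Within the Tcstv pair the balance of reads was not the same in every line. Tcstv1 gave 26 of 35 Tcstv reads (74.3%, exact Clopper-Pearson 95% interval 56.7 to 87.5%) and 17 of 26 (65.4%, 44.3 to 82.8%) in the double knockout at day 0, and 3 of 9 (33.3%, 7.49 to 70.1%) and 14 of 27 (51.9%, 31.9 to 71.3%) in the Pali1 knockout. It gave 4 of 37 (10.8%, 3.03 to 25.4%) and 24 of 54 (44.4%, 30.9 to 58.6%) in the gene trap, and 104 of 347 (30%, 25.2 to 35.1%) and 196 of 553 (35.4%, 31.5 to 39.6%) in C129 wild type. Both double knockout intervals lie above both of C129 wild type, while the gene trap duplicates do not overlap each other. The shares were compared after they were seen and no test was made of them, and since the copies are 94.7% identical the assignment of single reads between them is uncertain.

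**Figure D4:**
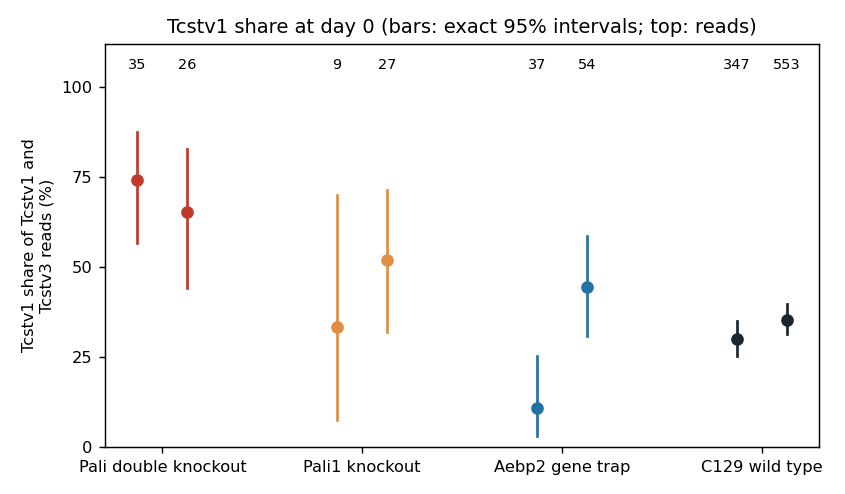
Share of Tcstv1 among the reads of Tcstv1 and Tcstv3 at day 0 (percent) in the 4 lines with at least 9 such reads in each library; dots are libraries, bars exact 95% intervals, and the numbers above give the reads. The double knockout libraries are at 74.3% and 65.4%, those of C129 wild type at 30% and 35.4%.

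The Zscan4 genes, which encode proteins of telomere maintenance and are the best known mark of the 2-cell-like state, followed the same order of lines. Zscan4 was known to be high in C129 wild type when the 7 genes were chosen, so this likeness is no independent support. At day 0 their summed normalised counts were 1800 and 1065 in the double knockout, 736.5 and 1480 in the Pali1 knockout, 6718 and 5520 in the gene trap, 39954 and 28811 in C129 wild type, and 104 and 59.8 in Pali wild type. For every 1000 Zscan4 counts there were 51.8 and 38 counts of the 7 genes in the double knockout, 50.5 and 43.1 in the Pali1 knockout, 15.5 and 21 in the gene trap, 24.6 and 29.5 in C129 wild type, and 84.2 and 35.7 in Pali wild type, from few reads. At day 0 both Pali mutants stood above C129 wild type, and the gene trap below it, with no overlap, while Pali wild type overlapped the Pali mutants. At day 4 the gene trap was at 40.8 and 34.1 and C129 wild type at 23.6 and 29.3. These gene trap values rest on only 6 and 10 reads of the 7 genes, so a change of order is not shown. The sums are not adjusted for gene length, and no test was made of their ratio.

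**Figure D5:**
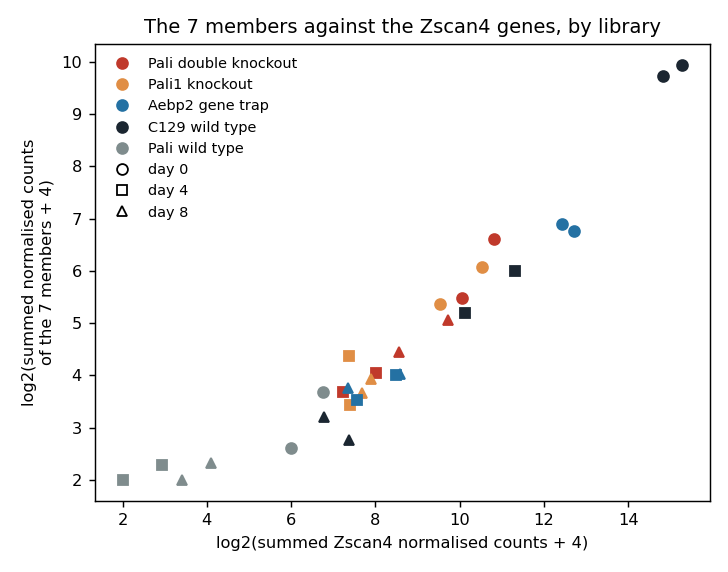
Summed normalised counts of the 7 genes (vertical) against those of the Zscan4 genes (horizontal), each as log2(sum + 4), with 1 point per library, colour for the line and shape for the day. C129 wild type at day 0 is at the upper right and Pali wild type at the lower left.

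Of 29 other 2-cell-like genes listed, 26 had a row and 24 could be tested. They were listed with earlier values of these data known, so they are no independent support either. At day 0, 23 were higher and 0 lower in C129 wild type than in Pali wild type by limma, with a median log2 difference of 5.40 against 0.05 over all genes. Of all genes 12.0% were called higher there. In the gene trap 0 were higher and 19 lower than in C129 wild type at day 0, with a median of -2.21, against 7.78% of all genes called lower. Gm5662 was at 761 and 588 normalised counts in the gene trap, against 5078 and 3745 in C129 wild type. At day 8, 4 of the 24 were higher in the gene trap (Usp17lc, Gm8300, Gm12794 and Obox6) and Ddit4l was lower, a day at which none of the 7 genes was called. Of all genes 9.59% were then called higher and 10.6% lower. Tdpoz5, which neighbours Tdpoz1 to Tdpoz4, was at 3.39 and 1.54 in the gene trap and 32.7 and 30.6 in C129 wild type (log2 difference -2.48, SE 0.326, adjusted p = 0.000106 by limma).

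Of the genes known to switch the 2-cell-like state on, 3 could be tested, and 2 of them were lower in the gene trap at day 0, against 7.78% of all genes. Dppa2, an activator of Dux and of 2-cell-like genes, was at 3248 and 4021 normalised counts in the gene trap at day 0 and 6765 and 5902 in C129 wild type (log2 difference -0.81, SE 0.238, adjusted p = 0.0326 by limma). Nelfa, a subunit of the NELF complex that can bring the state on, was also lower in the gene trap (-0.62, adjusted p = 5.28e-05), and Dppa4, the partner of Dppa2, was not called (-0.15, adjusted p = 0.718). Against Pali wild type, Dppa2 (1.03, adjusted p = 0.00462 by limma) and Nelfa (0.91, adjusted p = 1.46e-07) were higher in C129 wild type at day 0. The median log2 difference of the 3 genes from Pali wild type at day 0 was -0.14 in the Pali1 knockout and -0.00 in the double knockout. At day 8 it was -1.38 and -0.59. The part of these 3 genes in the results was not tested. Dux itself was not analysed here. Among 21 genes that restrain the state, 2 were lower in the gene trap than in C129 wild type at day 0: Setdb1, a histone H3 lysine 9 methyltransferase (-0.54, adjusted p = 0.000129), and Rif1 (-0.65, adjusted p = 0.00124). That share is near the 7.78% of all genes called lower. Setdb1, Rif1, Kdm1a and L3mbtl2 were higher in C129 wild type than in Pali wild type at day 0, and 0 of the 21 were lower, against 12.0% of all genes called higher.

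Markers of other cells were read beside these results. None of the 7 markers of undifferentiated cells was called between the gene trap and C129 wild type at day 0 by limma, and at day 8, 6 of the 7 were higher in the gene trap. Among all genes 7.78% were called lower in the gene trap at day 0 and 9.59% higher at day 8. Of 8 oocyte genes 4 could be tested, and Bmp15 was called: it was at 5.65 and 0.768 normalised counts in the gene trap, against 17.6 and 13.0 in C129 wild type (log2 difference -1.50, adjusted p = 0.013), and at 1.10 and 4.27 in Pali wild type. The summed oocyte list ranged from 66.2 to 190.5 over the 10 day 0 libraries and overlapped among lines, with 2 to 5 of its 8 genes under 1. Fibroblast genes moved with the lines in part. Their 6 genes summed to 306 and 266 in the double knockout, 90.5 and 114 in the Pali1 knockout, 162 and 69.1 in the gene trap, 174 and 138 in C129 wild type and 31.8 and 28.8 in Pali wild type, with Col1a2 and Thy1 of the 5 tested called higher in C129 wild type than in Pali wild type. At day 0, 12.0% of all genes were called higher in that comparison. The part of these cells in the results was not tested.

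Likeness to the 7 genes was measured by Pearson's r over the 30 libraries with the mean of their standardised log2 values, a description in which C129 day 0 weighs heavily. Abt1, named for activation of basal transcription, was closest (r = 0.984, and 0.938 without both C129 day 0 libraries), at 17591 and 15414 normalised counts in C129 wild type at day 0 and at most 3990 in any other library. Tnfrsf22, a decoy receptor of the TNF receptor family, followed (0.974 and 0.927), then Tacr3 (0.96 and 0.849), Usp17ld, a deubiquitinase of the list of 2-cell-like genes (0.959 and 0.915), Ankrd22, Dcdc2c, Olfr376, Krtap4-13, AF067063 and Tdpoz5 (0.948 and 0.792). Among the 7 genes the 21 pairwise r ran from 0.79 to 0.965 with a median of 0.874, and without the C129 day 0 libraries from 0.431 to 0.888 with a median of 0.648.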

How the data were processed

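RNA was sequenced from ribosome-depleted total RNA with a stranded kit, per the labels' protocols. The authors deposited 1 table of normalised counts, a signal in arbitrary count units, for 20563 genes in 30 libraries; per the submitters' processing notes, kallisto 0.43.1, HISAT2 2.0.5, DESeq2 and build mm10 were used, with no role stated. Columns were matched to samples by name, and the columns named WT were taken as Pali wild type, the other wild type having its own name. All 210 values of the 7 genes were whole multiples, within 0.001 of a step, of the value of 1 read in their library, and reads were recovered from this. Among all genes, 81.9% to 86.1% of low values were whole, so no count model was used.

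The main test was limma 3.58.1 (R 4.3.3; trend and robust) on log2(value + 4), with a mean for each of 15 groups in 1 fit of all libraries (15 residual degrees of freedom), for the 15712 genes with at least 10 normalised counts in at least 2 libraries. All 7 genes passed this filter. P-values were two-sided, adjusted by Benjamini-Hochberg over all genes within each of 21 comparisons, and called under 0.05. Another 6 comparisons, of the Pali mutants with Pali wild type, were described without a test. A check of the fit on simulated data added changes only to genes with a mean of at least 50 normalised counts. None of the 7 genes reached that mean, so the check does not cover them. The members, the gene lists and the tests were chosen with earlier results of these data known. All members were named; the 10 genes most like them were taken by correlation, leaving out symbols of the Rik and numbered Gm kinds. Duplicates correlated at r of at least 0.948. Alternatives were pseudocounts of 1 and 16, no filter, a rescaling by trimmed means of M values (TMM), a replicate block, a fit of only the groups compared, and leaving out each library. Exact Poisson and Clopper-Pearson intervals (95%) cover counting error only. Promoters came from RefSeq on GRCm38.p6, where 3 of the 7 genes had an entry; that of Tdpoz4 starts at its start codon and was not used. Gene models were those of GENCODE M21.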

Additional observations from a re-analysis of the deposited data

Results flagged for a closer look

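The fall of the 7 genes between day 0 and day 8 differed between lines by a test of the difference itself (limma, adjusted p under 0.05). All 7 were chosen with Zscan4 known to be high in C129 wild type, so these calls are no independent support. The change in C129 wild type minus that in Pali wild type was -2.16 for Tdpoz1, -2.62 for Tdpoz2, -3.86 for Tdpoz3, -4.89 for Tdpoz4, -5.50 for Zfp352, -5.04 for Tcstv1 and -5.66 for Tcstv3 on the log2 scale. With 8 and 2 reads of all 7 genes at day 0, Pali wild type could hardly fall. The change was also more negative in C129 wild type for 6 of the 7 markers of undifferentiated cells (median of the 7, -1.57), and their part in the result was not tested.

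The change in the Aebp2 gene trap minus that in C129 wild type was 1.30 for Tdpoz1, 2.47 for Tdpoz2, 2.26 for Tdpoz3, 3.24 for Tdpoz4, 3.14 for Zfp352, 3.95 for Tcstv1 and 3.17 for Tcstv3. This count of 7 was 3 in a fit of only the groups compared, 4 with a pseudocount of 1, and 5 or 6 without any 1 library. The same 6 markers of undifferentiated cells changed less in the gene trap (median of the 7, 1.38). Tdpoz1 and Tdpoz2 could be tested only through the C129 day 0 libraries, which fixed the direction of their values in both sets. Both sets of differences share the C129 libraries, and both lines were at or near a few reads by day 8, so these values lie close to the day 0 differences.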

How the results depend on the processing

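Depth limits these genes: outside C129 wild type at day 0 every value of a gene rests on at most 35 reads, and small differences were not detectable. Of 73 called values, 658 of 786 values under the alternatives stayed past the threshold, 128 did not, and 0 changed direction.

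A fit of only the groups compared, which leaves fewer residual degrees of freedom, gave these counts of called genes. It called 6 for C129 against Pali wild type at day 0 (main 7) and for their difference in course (7), 0 for C129 against Pali wild type at day 4 (4), 0 for the gene trap against C129 wild type at day 0 (7) and at day 4 (2), 0 for the Pali1 knockout at day 4 (3) and 1 at day 8 (3), 0 in double knockout cells at day 4 (5) and day 8 (1), 1 for the gene trap at day 4 (7) and 1 at day 8 (6), each against day 0, and 3 for the difference in course between the gene trap and C129 wild type (7). A pseudocount of 1 called 1 for the gene trap against C129 wild type at day 4 (2), 3 for the double knockout at day 4 (5), 4 for that difference in course (7), and 1 for Pali wild type at day 4 and at day 8 (0 each). No filter also called 1 in Pali wild type at day 4 and at day 8. The cause was not tested. No gene of the set passed the planned filter on a mean of 50, so it gave no value.

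Leaving out 1 library at a time, the counts ranged from 1 to 4 for C129 against Pali wild type at day 4, from 5 to 6 for the gene trap against C129 wild type at day 0 and 0 to 2 at day 4, from 0 to 3 at day 4 and 2 to 4 at day 8 in the Pali1 knockout, from 0 to 4 at day 4 and 0 to 2 at day 8 in the double knockout, from 4 to 5 at day 4 and 4 to 6 at day 8 in the gene trap, and from 5 to 6 for the difference in course between the gene trap and C129 wild type. The double knockout at day 4 lost all calls without its day 0 replicate 1. Of the described values of the Pali mutants, 70 of 420 under the alternatives moved by more than the standard error.

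Replicate numbers do not pair the samples: correlations of the replicate differences ran from -0.0623 to 0.109. With a replicate block, 71 of 73 called values stayed past the threshold, and Tdpoz2 in the gene trap did not, at day 4 (-0.77, adjusted p = 0.0536 by limma) and day 8 (-0.77, adjusted p = 0.0529). The block left 6 and 5 genes called there, and elsewhere the counts were as in the main fit, 7 for the gene trap against C129 wild type at day 0.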
